A study of Homo sapiens with 12 samples.

Results

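KP4 is a cell line from a human pancreatic ductal carcinoma. The 10 genes described here encode brakes of mitogen-activated protein kinase (MAPK) signalling, namely the dual-specificity phosphatases DUSP1, DUSP4, DUSP5, DUSP6, DUSP8 and DUSP10, the Sprouty proteins SPRY2 and SPRY4, and the Sprouty-related proteins SPRED1 and SPRED2. They were taken by name from a table of 36601 genes, and all 10 were found. No cutoff on their values was used, but they were chosen with earlier results of these data known. Wild-type KP4 cells received DMSO (vehicle), 10 mM metformin (Met), 5 nM FK866 (FK) or both drugs together (Met+FK) for 24 h, with 3 sequenced libraries per treatment. Metformin acts on complex I of the respiratory chain in mitochondria, and FK866 inhibits NAMPT, an enzyme that recycles nicotinamide into NAD. The labels number the libraries of a treatment as replicates but do not say that they came from separate cultures, so that the p-values below measure the spread between these libraries, which may be technical.

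In the RAS-ERK pathway, growth factor receptors activate RAS, which passes the signal through the kinases RAF and MEK to ERK. Active ERK switches on the transcription of several of its own inhibitors, and transcripts such as DUSP6 and SPRY4 are therefore widely read as a measure of ERK output. MAPK phosphatases remove phosphate from the activated kinases (ERK, JNK or p38, depending on the phosphatase), while Sprouty and SPRED proteins act upstream, between the receptors, RAS and RAF.

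Between 30667735 and 41052203 read pairs were counted per library (median 34767231.5), and values are given as normalized counts, i.e., read pairs divided by the size factor of the library (0.867 to 1.21). Libraries also differed in how their values depended on the GC content of a gene. This slope, in log2 units per 10 percentage points of GC, lay between 0.043 and 0.20 in the DMSO libraries, between −0.14 and 0.080 in Met, between −0.245 and 0.0027 in FK and between −0.048 and 0.063 in Met+FK. The lowest slope was that of FK replicate 2, and results that changed without this library are given with and without it. Of the epithelial markers, KRT18, KRT8 and SOX9 had means of 13174, 2728 and 4320 normalized counts, whereas EPCAM and CDH1 were low (8.93 and 47.4) and the mesenchymal marker VIM reached 103576. Acinar and endocrine markers were between 0 and 0.439. EPCAM and CDH1, which define epithelium, were thus low in a line labelled as ductal. Several of these markers moved with metformin. KRT18 had means of 18307 with DMSO, 10421 with Met, 13635 with FK and 10333 with Met+FK, KRT19 of 56.5, 23.3, 38.2 and 16.9, and CDH1 of 28.5, 61.4, 28.6 and 71.3. The blood cell marker PTPRC had means of 244 with DMSO, 161 with Met, 244 with FK and 134 with Met+FK, and the endothelial marker PECAM1 was between 5.24 and 8.16. The part of these differences in the results below was not tested.

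All 10 genes were among the 15376 tested, those whose mean over the libraries reached 10 normalized counts. A gene was called where the adjusted p was under 0.05 and the change was over 1.5-fold, in the fit of limma-trend on log2(normalized count + 1) with Benjamini-Hochberg adjustment over all genes tested. Log2 fold changes below are on this scale, which understates the change of low genes, unless another tool or setting is named.

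Against DMSO, metformin raised DUSP5, DUSP6 and DUSP8, and no member was called lower. That is 3 of 10 members called in either direction, with a background of 23% of all genes tested (12.8% higher and 10.2% lower). FK866 alone raised DUSP8 and SPRED1, 2 of 10 members against a background of 3.49% in either direction (2.73% higher and 0.754% lower). With both drugs, 4 of 10 members were called against DMSO, namely DUSP1, DUSP5, DUSP6 and DUSP8, all higher, against 25.1% of all genes (13.7% higher and 11.3% lower). Counted in either direction, the members called for metformin and Met+FK are thus close to what the background gives for 10 genes. All of them were higher, and for that direction alone the background was 12.8% and 13.7%. The FK866 count rests on 2 genes, each of which lost its call without single libraries. DUSP8, which is in the counts of all 3 comparisons, passed the filter only through the groups where it was high. By adjusted p alone, 7 of 10 members passed with metformin (background 50.9%), 6 with FK866 (21.1%) and 7 with Met+FK (52.2%). The libraries of 6, 6 and 7 members did not overlap with those of DMSO, against 56.9%, 38.8% and 60.9% of all genes. The median log2 fold change of the 10 members was 0.27 with metformin (0.012 over all genes tested), 0.21 with FK866 (−0.016) and 0.49 with Met+FK (0.014).

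**Figure D1:**
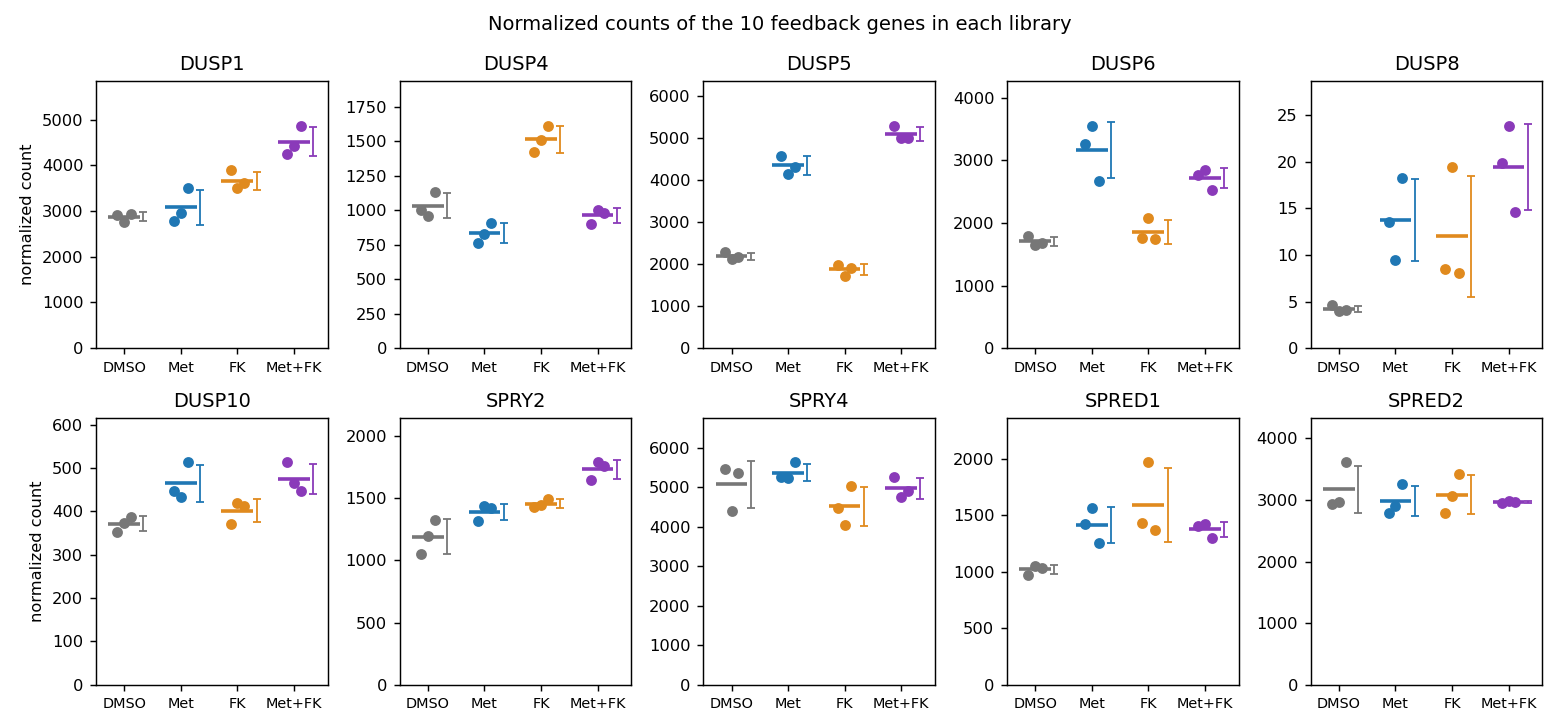
Normalized counts of the 10 feedback genes in each of the 12 libraries. The points are libraries, the horizontal bars are group means and the vertical bars their SD (n = 3 per treatment), each panel starts at 0 and has its own scale. DUSP5 splits into the metformin-treated libraries (Met and Met+FK, 4152 to 5298) and those without metformin (1724 to 2278), whereas SPRED2 and SPRY4 overlap between DMSO and every other treatment.

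Promoter sequences are shown for DUSP1, DUSP8 and SPRY2, because their means were highest with Met+FK and their windows hold the cAMP response element (CRE), the site bound by CREB and ATF family factors, or its shorter core. The sequences are from RefSeq (build GRCh38.p14), where 8 of the 10 members had 1 or more windows, and DUSP4 and DUSP5 had none. DUSP5 and DUSP10 also had their highest means with Met+FK, but DUSP5 could not be searched and DUSP10 had no match. The genes shown were thus picked partly for their motif, and a link between motif and treatment was not tested. The 250 bases upstream of each start were searched on both strands for the CRE (TGACGTCA), its shorter core (TGACG), the AP-1 site (TGAGTCA), the ETS core (CCGGAA), the ATF4-C/EBP element (TGATGCAA) and the serum response element core (CArG box). The CRE also holds the shorter core on both strands. Capitals mark the matches, with CGTCA being the core read on the other strand, and each stretch is written 5′ to 3′ on the strand of its gene.
DUSP1, chr5:172771286-172771375, minus strand: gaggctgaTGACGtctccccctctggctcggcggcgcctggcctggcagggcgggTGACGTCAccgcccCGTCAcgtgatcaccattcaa
DUSP8, chr11:1572322-1572401, minus strand: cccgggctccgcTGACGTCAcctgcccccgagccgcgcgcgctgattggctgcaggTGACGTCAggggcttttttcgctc
SPRY2, chr13:80341247-80341326, minus strand: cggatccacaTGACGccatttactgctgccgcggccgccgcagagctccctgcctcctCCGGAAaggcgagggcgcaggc
DUSP1 had 1 CRE, from 125 to 118 bases upstream of the start, with further matches of the core at 172 and 111. DUSP8 had 2, starting 118 and 74 bases upstream. SPRY2 had a CRE core and an ETS core in its window 1, which is the one shown, and no match in its windows 2 and 3. SPRY4 had a CRE core starting 68 bases upstream. Of 35116 upstream windows of all genes, 1.65% held the CRE, 21.2% the shorter core and 14.5% the ETS core. No match for these motifs was found in the windows of DUSP6, DUSP10, SPRED1 and SPRED2. A match is a description of the letters and does not show that a factor binds.

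DUSP1 (chr5:172768096-172771195 in hg38, minus strand) encodes a nuclear phosphatase that is induced within minutes by growth factors and stress and acts on p38, JNK and ERK. Its normalized counts were 2914, 2773 and 2947 in the DMSO libraries and 2782, 2958 and 3515 with metformin, so that these groups overlapped. They were 3891, 3497 and 3607 with FK866 and 4254, 4431 and 4875 with Met+FK. The Met+FK libraries were above all others, and the FK libraries were above all DMSO libraries. DUSP1 rose 1.57-fold with Met+FK against DMSO (log2 fold change 0.65, SE 0.089, adjusted p = 2.77e-05). With FK866 alone it was 1.27-fold higher (0.35, adjusted p = 0.0244), below the fold threshold, and this adjusted p was 0.0995, 0.0604 and 0.0555 without DMSO replicate 1, DMSO replicate 3 and FK replicate 2. With a trend on GC content and length taken out of each library, the FK866 difference was 0.52 (limma-trend, adjusted p = 1.52e-05), also below the fold threshold. Metformin alone gave 0.09 (adjusted p = 0.395). Metformin gave 0.24 (adjusted p = 0.00123) once a trend on GC and length had been taken out of each library and 0.22 (adjusted p = 0.0448) when libraries were scaled to the same total, a scaling that moved the median of all genes from 0.012 to 0.13. In bulk RNA, a change of transcript per cell and a change in the share of cells that express a gene cannot be told apart.

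DUSP4 (chr8:29333064-29350684, minus strand), another nuclear phosphatase induced by ERK, differed in direction between the drugs. Its counts were 999.4, 962 and 1135 with DMSO, 762, 829.6 and 906 with metformin, 1421, 1507 and 1615 with FK866 and 904, 1003 and 981 with Met+FK. The metformin libraries were all below and the FK libraries all above those with DMSO, while the Met+FK libraries overlapped with DMSO. Against DMSO, DUSP4 was 1.47-fold higher with FK866 (0.55, SE 0.093, adjusted p = 0.00515) and 0.807-fold with metformin (−0.31, adjusted p = 0.0122), both under the fold threshold. The former passed that threshold without DMSO replicate 3 (0.62) and without FK replicate 1 (0.60). The adjusted p of the latter was 0.0698 without DMSO replicate 3, 0.0672 without Met replicate 1 and 0.110 when libraries were scaled to the same total (−0.19). Between the drugs DUSP4 fell with metformin against FK866 (−0.86, adjusted p = 5.75e-06), and it also fell when metformin was added to FK866 (−0.65, adjusted p = 5.83e-05). Metformin against FK866 called 3 of 10 members, DUSP4 lower and DUSP5 and DUSP6 higher, where 15.1% of all genes were called (8.08% higher and 7.03% lower). Met+FK against FK called 2, DUSP4 lower and DUSP5 higher, where 18.6% were called (9.27% higher and 9.29% lower). By adjusted p alone, each of these comparisons had 5 members, against 36.7% and 42.1% of all genes.

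DUSP5 (chr10:110497907-110511533, plus strand) encodes a nuclear phosphatase specific for ERK, and it had the smallest adjusted p of the 10 genes with metformin against DMSO. Its counts were 2278, 2113 and 2167 with DMSO and 4578, 4152 and 4311 with metformin, and none of these libraries overlapped. With FK866 they were 1989.6, 1724 and 1914, and with Met+FK 5298, 5001 and 4992. DUSP5 rose 1.99-fold with metformin against DMSO (0.99, SE 0.074, adjusted p = 1.27e-07) and 2.33-fold with Met+FK (1.22, adjusted p = 1.16e-08). It was also 2.72-fold higher with Met+FK than with FK866 (1.44, adjusted p = 3.71e-09). With FK866 alone DUSP5 was 0.857-fold (−0.22, adjusted p = 0.0468), and every FK library was below every DMSO library. This small difference was −0.06 (adjusted p = 0.576) with the trend on GC content and length removed. Its adjusted p was between 0.0705 and 0.207 without DMSO replicate 1, DMSO replicate 3, FK replicate 2 or FK replicate 3.

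DUSP6 (chr12:89347235-89352501, minus strand) encodes the cytoplasmic phosphatase of ERK and is often used as a transcript of ERK activity. It had 1789, 1646 and 1687 normalized counts with DMSO, 3263, 3556 and 2671 with metformin, 1757, 2076 and 1740.2 with FK866 and 2768, 2844 and 2533 with Met+FK. The 6 libraries with metformin were all above the 6 without it, and Met and Met+FK overlapped. DUSP6 rose 1.84-fold with metformin (0.88, SE 0.10, adjusted p = 8.69e-06) and 1.59-fold with Met+FK (0.67, adjusted p = 8.45e-05) against DMSO. FK866 alone gave 0.12, with a 95% interval from −0.10 to 0.34 (adjusted p = 0.394). Metformin against FK866 gave a further called difference (0.76, adjusted p = 4.59e-05). The addition of metformin to FK866 gave 1.46-fold (0.55, adjusted p = 0.0006), under the fold threshold, but it passed that threshold without FK replicate 2 (0.63) and without Met+FK replicate 3 (0.60).

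DUSP8 and DUSP10 encode phosphatases that prefer the stress kinases JNK and p38 over ERK. DUSP8 (chr11:1554051-1572271, minus strand) was the least abundant member, with 4.62, 3.94 and 4.09 normalized counts in the DMSO libraries. It had 13.6, 9.45 and 18.3 with metformin, 8.49, 19.5 and 8.04 with FK866 and 19.9, 23.9 and 14.6 with Met+FK. Every treated library was above every DMSO library, while the 3 drug treatments overlapped among themselves. DUSP8 rose with metformin (1.46, SE 0.36, adjusted p = 0.00374), with FK866 (1.21, adjusted p = 0.0353) and with Met+FK (1.95, adjusted p = 0.00042), the widest errors of the 10 genes. With FK866, 1 library with 19.5 counts carried much of the difference. Without this library, FK replicate 2, the log2 fold change was 0.83 (adjusted p = 0.201), and the adjusted p was 0.115 without DMSO replicate 1 and 0.0846 without DMSO replicate 3. DESeq2 gave no adjusted p for DUSP8 in this comparison. With no filter on low values, limma-trend did not call DUSP8 with FK866 (adjusted p = 0.0669). It was still called with metformin (adjusted p = 0.00939) and with Met+FK (adjusted p = 0.00116). Without FK replicate 2, DUSP8 was called higher in Met+FK than in FK (1.12, adjusted p = 0.0254, against 0.74 and 0.117 with it).

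DUSP10 (chr1:221701424-221742089, minus strand) had 353, 373 and 388 normalized counts with DMSO and 446, 434 and 513 with metformin. It had 371, 420.2 and 413 with FK866 and 513, 465 and 447 with Met+FK. The metformin-treated libraries were above those of DMSO by a small margin, and it was not called in any comparison. The log2 fold change against DMSO was 0.32 with metformin (SE 0.0998, adjusted p = 0.015) and 0.35 with Met+FK (adjusted p = 0.00821). The former had an adjusted p of 0.0589 without DMSO replicate 1 and 0.0628 without Met replicate 3.

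SPRY2 and SPRY4 encode Sprouty proteins, which dampen signalling from receptor tyrosine kinases to RAS and RAF. SPRY2 (chr13:80335976-80341126, minus strand) had 1050.2, 1193 and 1326 normalized counts with DMSO and 1312, 1434 and 1419 with metformin. With FK866 it had 1427, 1439 and 1492, and with Met+FK 1642, 1787 and 1760.0. The Met+FK libraries were above all others, as for DUSP1. Against DMSO, SPRY2 was 1.46-fold higher with Met+FK (0.54, SE 0.088, adjusted p = 0.000121), just under the fold threshold, which it passed without DMSO replicate 3 (0.63). The smaller differences with FK866 (0.29, adjusted p = 0.035) and with metformin (0.23, adjusted p = 0.0411) each depended on single libraries. The adjusted p was between 0.0731 and 0.155 for FK866 without DMSO replicate 1, FK replicate 2 or FK replicate 3. For metformin it was between 0.0674 and 0.206 without DMSO replicate 1, DMSO replicate 2, Met replicate 2 or Met replicate 3.

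SPRY4 (chr5:142310427-142326455, minus strand) is a frequently used ERK target. It ranged from 4387 to 5459.8 normalized counts with DMSO, from 5224 to 5629.8 with metformin, from 4036 to 5032 with FK866 and from 4757 to 5263 with Met+FK. No treatment was separated from DMSO. Between the drugs, every Met library was above every FK library (0.25, limma-trend, adjusted p = 0.0486), under the fold threshold. With 1 of the 6 libraries compared left out, that adjusted p was between 0.0216 and 0.155. The log2 fold changes against DMSO were 0.09 with metformin (95% interval −0.11 to 0.29), −0.17 with FK866 (−0.37 to 0.038) and −0.02 with Met+FK (−0.23 to 0.18), and each interval excludes a 1.5-fold change in either direction. The adjusted p with FK866 was 0.195, 0.0451 without DMSO replicate 2 (−0.27) and 0.575 without FK replicate 2 (−0.087). SPRY4 therefore differed from DUSP6, its companion as an ERK readout, in the metformin comparison, where DUSP6 had an interval from 0.66 to 1.10. The SPRY4 gene overlaps SPRY4-AS1 on the other strand (mean of 97.9 normalized counts), and the strand setting of the counting is not given in the sources used here. The genes that overlap DUSP1, DUSP6, DUSP8 and SPRED2 had means between 0.085 and 20.5.

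SPRED1 and SPRED2 are membrane-bound relatives of the Sprouty proteins. SPRED1 brings neurofibromin, which switches RAS off, to the membrane. SPRED1 (chr15:38252836-38357249, plus strand) had 975, 1056 and 1035 normalized counts with DMSO, 1426, 1569 and 1254 with metformin, 1434, 1971 and 1369 with FK866 and 1410.1, 1422 and 1303 with Met+FK. Every treated library was above every DMSO library. SPRED1 rose 1.54-fold with FK866 (0.62, SE 0.12, adjusted p = 0.0124) and was 1.38-fold with metformin (0.46, adjusted p = 0.00518) and 1.35-fold with Met+FK (0.43, adjusted p = 0.00795). Its transcript is long (7270 nt) and has the lowest GC content of the 10 (36.3%). With each library's trend on GC content and length removed, the 3 differences were 0.16 (adjusted p = 0.204), 0.07 (0.449) and 0.11 (0.237), and none passed. Without FK replicate 2, the library with the lowest GC slope and the highest SPRED1, the FK866 difference was 0.46 (adjusted p = 0.0282), and without DMSO replicate 1 it was 0.59 (adjusted p = 0.0683).

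SPRED2 (chr2:65310851-65432637, minus strand) showed no difference that passed the test. It ranged from 2936 to 3614 normalized counts with DMSO, from 2783 to 3267 with metformin, from 2782 to 3425 with FK866 and from 2947 to 2983 with Met+FK. The intervals against DMSO ran from −0.29 to 0.12 with metformin, from −0.24 to 0.17 with FK866 and from −0.30 to 0.12 with Met+FK.

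**Figure D2:**
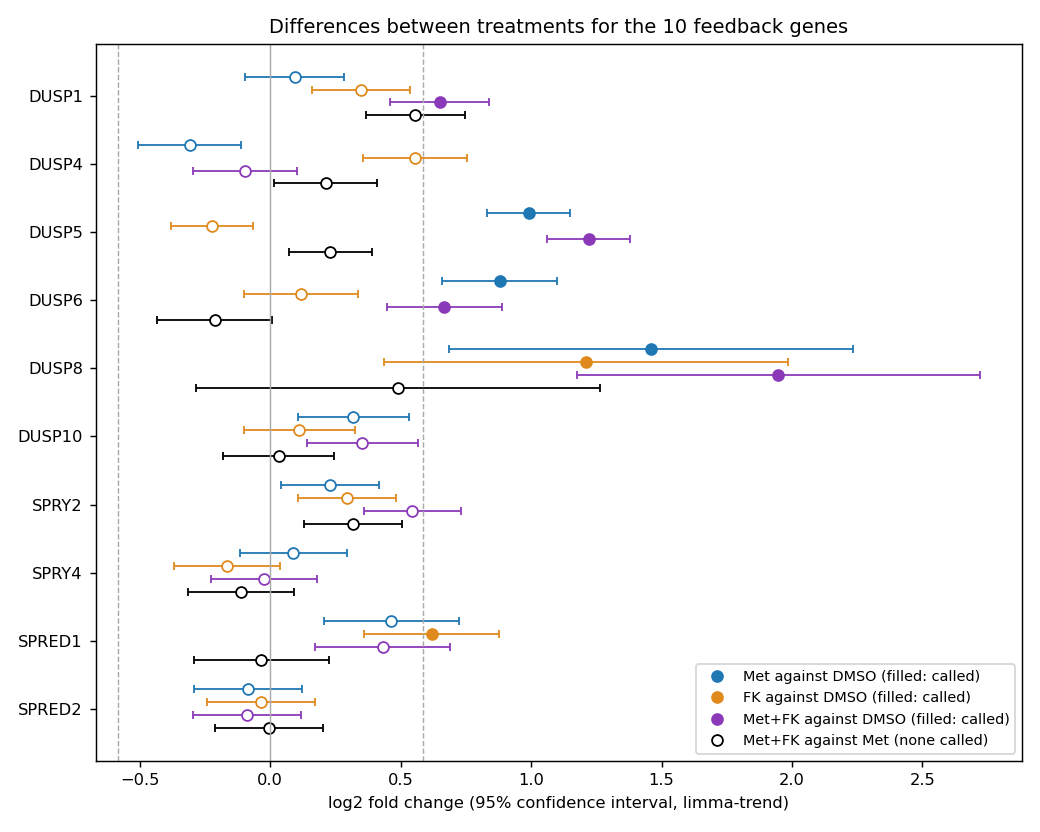
Log2 fold changes of the 10 feedback genes with their 95% intervals (limma-trend) for 4 comparisons between treatments, filled points being called genes and dashed lines a 1.5-fold change. DUSP5, DUSP6 and DUSP8 lie to the right of 0 with metformin and with Met+FK, the intervals of DUSP8 being the widest, and the intervals of SPRED2 include 0 in all 4 comparisons.

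**Figure D3:**
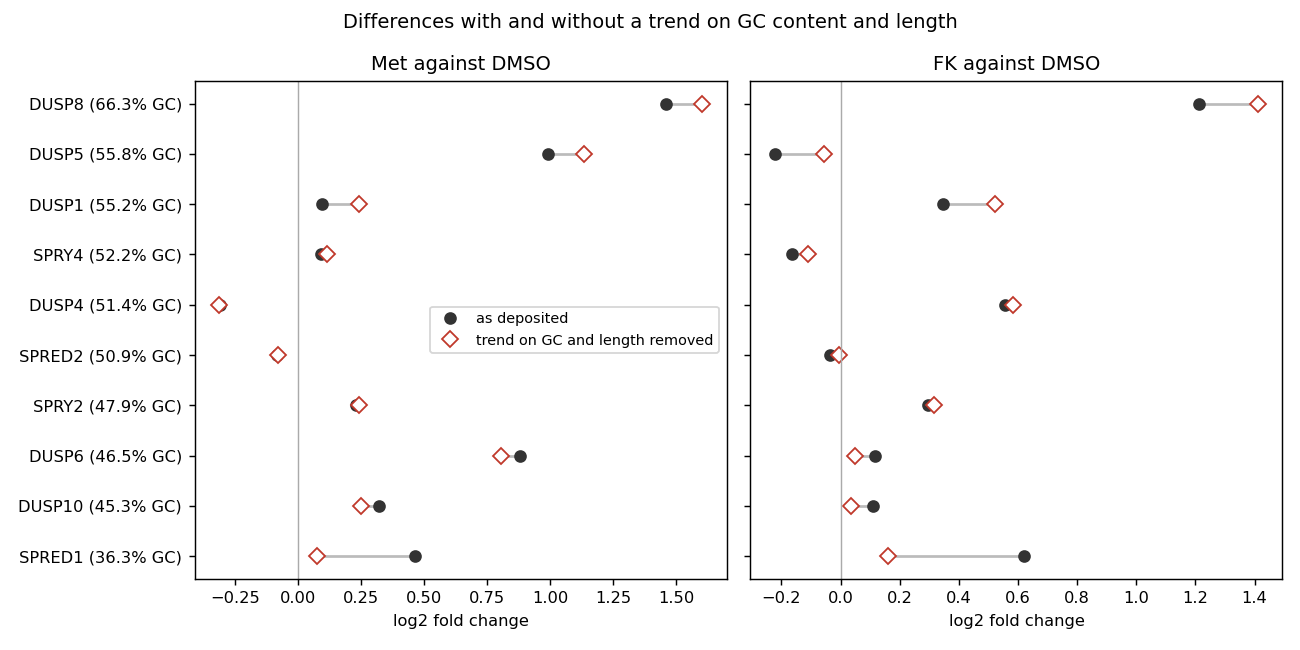
Log2 fold changes of each member with metformin (left) and with FK866 (right) against DMSO as deposited (filled circles) and after removal of a loess trend on GC content and transcript length in each library (open diamonds), with the GC content of the transcript beside each name. SPRED1 (36.3% GC) moves from 0.46 to 0.07 with metformin and from 0.62 to 0.16 with FK866, whereas DUSP5 with metformin moves from 0.99 to 1.13.

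Per kilobase of the canonical transcript, the order in DMSO was DUSP1 (1430 ± 46.1 normalized counts per kb, SD, n = 3), SPRY4 (1034 ± 120.9), DUSP5 (883 ± 33.9), SPRED2 (702 ± 84.6), SPRY2 (520.4 ± 60.3), DUSP6 (471 ± 20.2), DUSP4 (186 ± 16.4), DUSP10 (143 ± 6.71), SPRED1 (141 ± 5.79) and DUSP8 (0.874 ± 0.0735). The libraries of the neighbours SPRY4 and DUSP5 overlapped, as did those of SPRY2 and DUSP6 and those of DUSP10 and SPRED1. With metformin, DUSP5 had the highest level per kb (1755 ± 86.9), above DUSP1 (1533 ± 190.1), although their ranges overlapped. DUSP6 moved from the sixth to the fourth place (872 ± 124).

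The study's central question was what FK866 adds to metformin. Met+FK against Met gave 0 called members with limma-trend, with edgeR and with DESeq2, against a background of 0.0585% of all genes in limma-trend. In the same fit, 4 members (DUSP1, DUSP4, DUSP5 and SPRY2) had an unadjusted p under 0.05. For counts by unadjusted p, here and below, the share of all genes was not taken, so they cannot be set against a background. DUSP1 was the only member with an adjusted p under 0.05 (1.47-fold, 0.56, SE 0.089, adjusted p = 0.0269), against a background of 0.0976% by adjusted p alone. Its Met+FK libraries, 4254 to 4875, were all above its Met libraries, 2782 to 3515. Whether the adjusted p was under 0.05 depended on single libraries. Without Met replicate 3 the difference was called (0.65, adjusted p = 0.00795), and without any other 1 of the 6 libraries compared (Met replicates 1 and 2 and Met+FK replicates 1, 2 and 3) the log2 fold change was between 0.48 and 0.60 and the adjusted p between 0.0876 and 0.189. With all libraries, DESeq2 gave 0.55 (adjusted p = 4.18e-05), and limma-trend gave 0.53 (adjusted p = 0.000103) with the trend on GC content and length removed. DUSP5 (0.23, adjusted p = 0.479) and SPRY2 (0.32, adjusted p = 0.329) also had all Met+FK libraries above all Met libraries, giving 3 of 10 members with no overlap upwards against 7.88% of all genes. When replicate number entered the fit as a block, SPRY2 had an adjusted p of 0.0391 and DUSP1 of 0.00198.

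The effect of FK866 can also be compared without and with metformin, in libraries that these 2 comparisons do not share. DUSP1 gave 0.35 without and 0.56 with metformin, and 0.52 and 0.53 with the trend on GC content and length removed. SPRY2 gave 0.29 and 0.32. DUSP5 gave −0.22 without and 0.23 with metformin, and SPRED1 gave 0.62 and −0.03. The test of the difference between the 2 effects called 0 members with limma-trend and with edgeR (background 0.0585%), 4 (DUSP4, DUSP5, DUSP6 and SPRED1) had an unadjusted p under 0.05, and DESeq2 called 2, DUSP5 and SPRED1, with 5.67% of all genes called (edgeR 0.065%). The interaction of DUSP5 was 0.45 (SE 0.105, adjusted p = 0.106) and that of SPRED1 −0.65 (SE 0.17, adjusted p = 0.11). Without FK replicate 1 both passed (adjusted p = 0.0391 and 0.0408), as did 12% of all genes. With replicate number entered as a block all 4 passed (DUSP4 −0.34 and adjusted p = 0.0179, DUSP5 0.00407, DUSP6 −0.33 and 0.0331, SPRED1 0.00531), but so did 32% of all genes, which is near the 4 of 10 members. With the trend on GC content and length removed as well as the block, DUSP4 (−0.39, adjusted p = 0.00472) and DUSP5 (0.26, adjusted p = 0.0265) passed, with 6.97% of all genes, and SPRED1 was −0.12 (adjusted p = 0.612) with the trend alone removed.

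**Figure D4:**
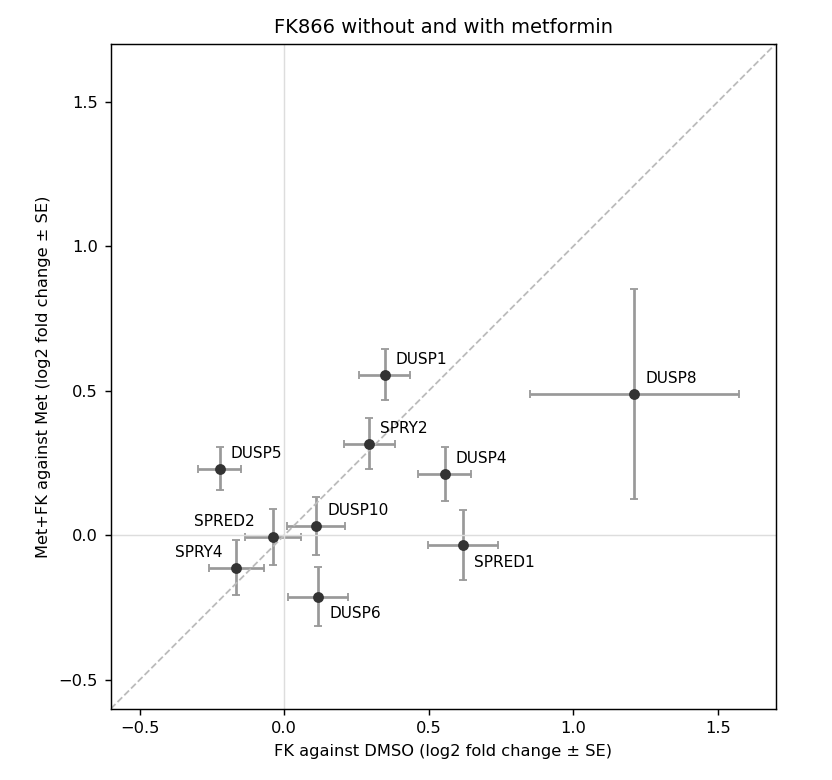
Effect of FK866 without metformin (horizontal axis, FK against DMSO) and with metformin (vertical axis, Met+FK against Met) for the 10 feedback genes, as log2 fold changes with their SE. The dashed line marks equal effects. DUSP8 lies farthest to the right (1.21 and 0.49), DUSP1 (0.35 and 0.56) and SPRY2 (0.29 and 0.32) are to the upper right, DUSP5 (−0.22 and 0.23) is at the upper left, and SPRED1 (0.62 and −0.03) lies near 0 on the vertical axis.

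Other genes of the pathway were taken from lists that were written with earlier results of these data known. Of all genes tested, 12.8% were called higher and 10.2% lower with metformin. With FK866 these shares were 2.73% and 0.754%, and with Met+FK 13.7% and 11.3%, each against DMSO. For Met+FK against Met, 0.0585% were called in either direction. The counts of the lists were not tested against these shares. Of 12 ERK output genes other than the members, 0 were called higher and 2 lower with metformin by limma-trend (median log2 fold change −0.30), while edgeR, and libraries scaled to the same total, each called 1 higher. CCND1, the cyclin D1 gene, fell from 19021 ± 972 to 11460.0 ± 530.2 normalized counts (SD, n = 3, log2 fold change −0.73, adjusted p = 5.95e-07), and FOS, an immediate early transcription factor, fell from 167 ± 18.5 to 66.3 ± 23.1 (−1.37, adjusted p = 5.38e-05). These 2 genes moved opposite to DUSP5 and DUSP6, but the list did not move as 1 group. By adjusted p alone, 3 of its genes were higher and 5 lower with metformin (50.9% of all genes in either direction). Of the higher ones, ETV5, a transcription factor of the ETS family that is named here after its values were seen, went from 6467 ± 346 to 9605 ± 735 with no overlap (0.57, adjusted p = 4.08e-05), just under the fold threshold. Met+FK against DMSO gave 1 called higher, MYC (0.75, adjusted p = 8.58e-07), and 3 lower (median −0.21), among them CCND1 (−1.06, adjusted p = 1.18e-08) and FOS (−1.05, adjusted p = 0.000435). FK866 alone called 0 of 12 with limma-trend, edgeR and DESeq2, 9 having an unadjusted p under 0.05 in limma-trend (median −0.15). Between Met+FK and Met the stress-responsive gene IER3 was higher (0.65, adjusted p = 0.028), from 445 ± 36.3 to 698 ± 43.5.

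Of 18 genes of the RAS-ERK cascade itself, metformin raised 2, SOS2 (0.95, adjusted p = 0.00015) and SOS1 (0.69, adjusted p = 0.00118), which encode activators of RAS, and lowered 1, RPS6KA1 (−0.74, adjusted p = 2.53e-05), a kinase downstream of ERK. These 3 of 18 genes compare with 23% of all genes called in either direction, and the list's median was −0.16. FK866 raised SOS1 (0.71, adjusted p = 0.0136), but the number of genes of this list called higher with FK866 was 0 without DMSO replicate 1 or FK replicate 2 and up to 3 without another library (2 without FK replicate 3, and 3 without DMSO replicate 2 or FK replicate 1). Met+FK raised SOS2 (0.87, adjusted p = 0.000262) and SOS1 (0.60, adjusted p = 0.00312) and 1 other, and lowered 0. Of these 3, 1 was called without DMSO replicate 1 or Met+FK replicate 2. With the trend on GC content and length removed, SOS2 stayed called with metformin (0.66, adjusted p = 9.17e-07) and SOS1 was 0.35 (adjusted p = 0.000506), under the fold threshold. The list gave 0 called genes in Met+FK against Met with all 3 tools, 1 having an unadjusted p under 0.05.

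Of 14 genes of the JNK and p38 cascades, 13 could be tested. The shares of all genes called in either direction were 23% with metformin, 3.49% with FK866 and 25.1% with Met+FK. MAP2K3, an activator of p38, was the only one called with metformin (−0.70, adjusted p = 2.47e-05) and with Met+FK (−0.75, adjusted p = 9.97e-06), and FK866 called 0 with limma-trend, edgeR and DESeq2, 8 having an unadjusted p under 0.05. With the trend on GC content and length removed, MAP2K3 with metformin was −0.55 (adjusted p = 4.16e-08), under the fold threshold.

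Among the relatives of the 10 members the called genes were lower, not higher. Of 7 further DUSP, SPRY and SPRED genes, 6 were tested, and with metformin 0 were called higher and 3 lower (median −0.63, against 0.27 for the 10 members). Of all genes, 10.2% were called lower with metformin and 11.3% with Met+FK. DUSP9, an ERK phosphatase of low level, fell from 44.7 ± 1.8 to 13.6 ± 6.6 normalized counts (−1.77, adjusted p = 0.00065), and DUSP2, an inducible nuclear phosphatase, from 35.3 ± 11.2 to 19.1 ± 7.3 (−0.86, adjusted p = 0.031). With Met+FK, 4 of the 6 were called lower, among them DUSP9 (−1.63, adjusted p = 0.00116) and DUSP2 (−0.85, adjusted p = 0.0325). By adjusted p alone, 1 of the 6 was higher and 4 were lower, both with metformin and with Met+FK. In either direction, 50.9% and 52.2% of all genes passed in these comparisons. The higher gene of the 6 was DUSP16, named here after its values were seen. It went from 2361 ± 76 with DMSO to 3209 ± 114 with metformin and 3520 ± 209 with Met+FK. Its libraries did not overlap with DMSO in either case, and it was not called. FK866 alone lowered DUSP9 to 20.2 ± 1.7 (−1.11, adjusted p = 0.0389), a call lost with DESeq2, with the trend on GC content and length removed, under either other filter on low values and without any 1 of the DMSO or FK libraries. When libraries were scaled to the same total, 1 rather than 3 were called lower with metformin and 2 rather than 4 with Met+FK.

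Of 9 further brakes on RAS-ERK signalling, metformin raised 2, RASA1 (0.98, adjusted p = 0.000227), which switches RAS off, and ERRFI1 (0.72, adjusted p = 2.29e-06), which inhibits the EGF receptor. Met+FK raised 3, among them ERRFI1 (1.01, adjusted p = 5.74e-08) and RASA1 (0.92, adjusted p = 0.000338), and 0 were lower in either comparison. ERRFI1 went from 13038 ± 829 with DMSO to 21427 ± 1050.4 with metformin and 26279 ± 1208 with Met+FK. Of all genes, 12.8% were called higher with metformin and 13.7% with Met+FK. The medians of the list of brakes were 0.36 and 0.29. With the trend on GC content and length removed, ERRFI1 was 0.57 with metformin (adjusted p = 1.91e-07), under the fold threshold, and RASA1 0.80. FK866 called 0 of 9 with limma-trend, edgeR and DESeq2, 3 having an unadjusted p under 0.05 in limma-trend. The called genes counted above but not named by the rule for names are EGR1, BRAF, CBL, SPRY1 and DUSP7, named here after their values were seen. EGR1, SPRY1 and DUSP7 were lower (−0.62, −0.81 and −0.67) and BRAF and CBL higher (0.60 each) with Met+FK against DMSO, and SPRY1 was also lower with metformin (−0.70).

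**Figure D5:**
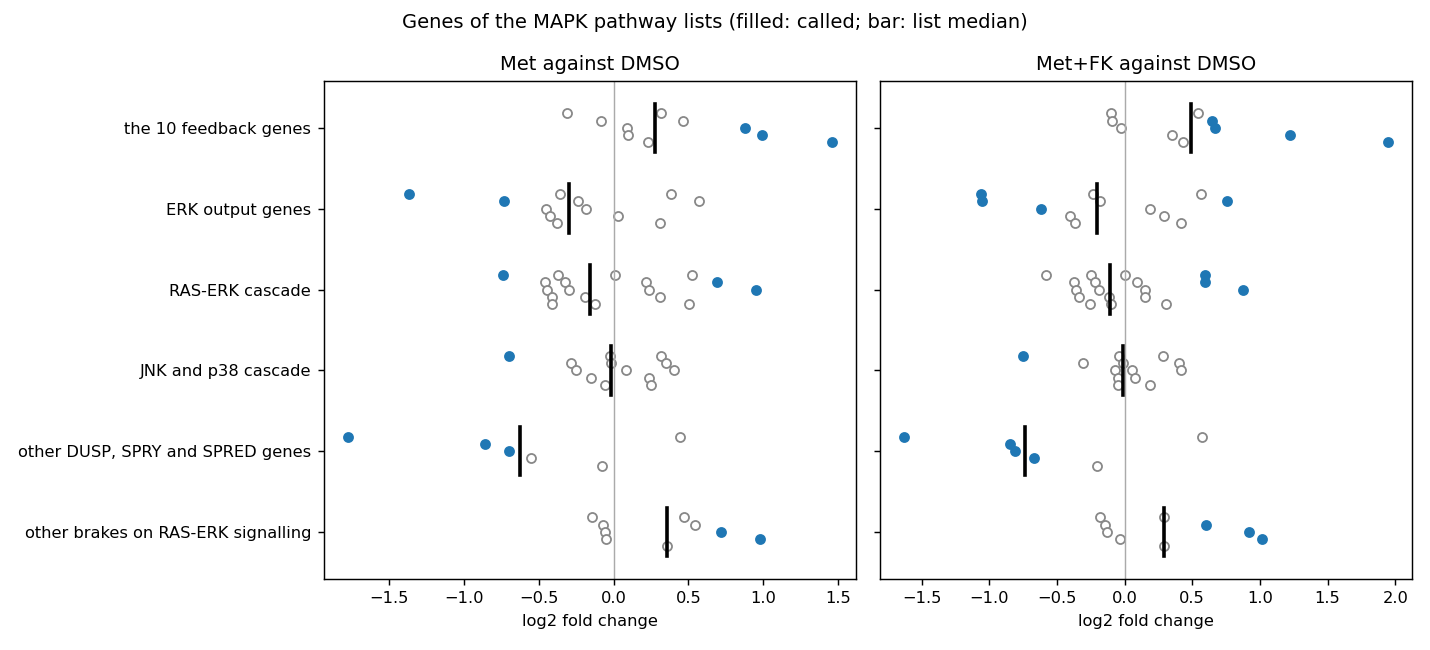
Log2 fold changes of the genes of the 5 pathway lists and of the 10 members with metformin (left) and with Met+FK (right) against DMSO, each point being a gene, filled where called, and each bar the median of its list. With metformin the median of the 10 members is 0.27, that of the further brakes 0.36 and that of the other DUSP, SPRY and SPRED genes −0.63.

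To see which other transcripts followed the same course over the 12 libraries, the root mean square difference of centred log2 values was taken between a member and each of 11520 genes whose mean reached 100. The genes nearest to DUSP1 were PRAG1 (0.131), SPRY2 (0.137) and CASTOR1 (0.142), with a median of 0.34 over all genes compared. Another of the 10 members, SPRY2, was thus the second nearest of all. Nearest to DUSP6 were LYPLAL1 (0.0846), WDR41 (0.0983) and TRAF5 (0.1), with a median of 0.424. WDR41 went from 1414 with DMSO to 2488 with metformin, 1553 with FK866 and 2402 with Met+FK (means of 3). Nearest to SPRY4 were PPP1R26 (0.0512), ARHGEF11 (0.0585) and TGFBRAP1 (0.0641), with a median of 0.262.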

How the data were processed

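Total RNA of KP4 cells, treated for 24 h, was depleted of ribosomal RNA and sequenced from both fragment ends (3 libraries for each treatment). The authors used cutadapt 3.7 for trimming, STAR 2.7.8 for alignment to hg38 and featureCounts 2.0.1 for gene counts, which they divided by DESeq2 size factors. The deposited values are this signal, never negative, for 36601 genes (9803 without reads). Division by the smallest step of each library gave whole read pairs for 100% of the values, within 0.01 reads. No library was a copy of another, since replicates differed by more than sampling noise. Errors are those between replicates, and no intervals for counting error are given.

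The 10 members and the pathway lists were chosen with earlier results of these data known. Members are named in every comparison, and from each list the 2 largest and 2 smallest called changes against DMSO and every called gene of Met+FK against Met and of the interaction. The test was limma-trend (limma 3.58.1, R 4.3.3) on log2(normalized count + 1), with genes of mean at least 10, a single fit of the 12 libraries, and p-values adjusted by Benjamini-Hochberg per comparison over 15376 genes, checked on simulated counts. The interaction had no fold threshold. Library columns were matched to samples by treatment and replicate number.

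Alternatives were pseudocounts of 0.1 and 10, other filters, equal totals, TMM, a fit of the compared libraries alone, a block for replicate number, edgeR 4.0.16 and DESeq2 1.42.0 on recovered read pairs, removal of a loess trend (span 0.3) on GC content and length of the GENCODE 44 canonical transcript, and each library left out. List counts under these settings were added after the data were seen. For pairing, the deviation of each library from its group mean was correlated, across genes, between libraries of the same number. This gave 0.252, 0.42 and 0.219 for DMSO with FK and 0.171, 0.2 and 0.226 for Met with Met+FK. Every other pair of treatments had at least 1 value under 0.1. For replicates 2 and 3, however, Met with FK gave 0.403 and 0.3 and DMSO with Met gave 0.328 and 0.248, above the values of Met with Met+FK. Replicate 2 also had the lowest GC slope in each of the 4 treatments. The correlations therefore do not settle which treatments were paired, and the labels do not state a pairing. The main fit used no pairing, and the block for replicate number spanned all 4 treatments. Deposited starts count from 0 and are given from 1. All 10 members have the same position in GENCODE 44.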

Additional observations from a re-analysis of the deposited data

Results flagged for a closer look

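The effect of FK866 on DUSP5 had opposite signs without and with metformin, with no overlap between the libraries in either comparison. Against DMSO the FK libraries were lower (1724 to 1989.6 against 2113 to 2278, log2 fold change −0.22), and against Met the Met+FK libraries were higher (4992 to 5298 against 4152 to 4578, 0.23). The difference between the 2 effects was 0.45 (SE 0.105, limma-trend, adjusted p = 0.106). It passed with DESeq2 on the recovered read pairs (0.44, adjusted p = 0.0125, where 5.67% of all genes passed) and when replicate number was entered as a block (adjusted p = 0.00407, where 32% of all genes passed, against 0.0585% in limma-trend without the block), and it was 0.26 (adjusted p = 0.136) with the trend on GC content and length removed. The part of that trend in the result was not tested further.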

How the results depend on the processing

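No member with an adjusted p under 0.05 changed direction under any alternative. Of 1659 recomputed differences of single members, 1503 kept their direction and their side of an adjusted p of 0.05, 83 were no longer under it, 28 came under it and 45 changed sign without being under it either way. By adjusted p alone, the number of members called was 7 for metformin (3 with the fold threshold), 6 for FK866 (2), 7 for Met+FK (4), each against DMSO, 1 for Met+FK against Met (0), 5 for Met+FK against FK (2) and 5 for Met against FK (3). With the fold threshold, FK866 against DMSO had 1 called member with a pseudocount of 10, with no filter on low values, with at least 10 counts in every library, with DESeq2, and with the trend on GC content and length removed, without or with the replicate block, and 0 when only the libraries compared were fitted. The interaction called 0 members as reported (0.0585% of all genes), 4 with the replicate block (32%), 2 with DESeq2 (5.67%) and 2 with the trend removed and the block (6.97%). The replicate block changed no count of members called with the fold threshold by more than 1.5 times. By adjusted p alone, SPRY2 (0.0391) joined DUSP1 (0.00198) in Met+FK against Met with the block. Leaving out 1 library gave 3 to 3 called members for metformin, 0 to 3 for FK866 (0 without DMSO replicate 1 and without FK replicate 2) and 4 to 5 for Met+FK, each against DMSO, 0 to 1 for Met+FK against Met (1 without Met replicate 3), 2 to 4 for Met+FK against FK (4 without FK replicate 2), 3 to 3 for Met against FK and 0 to 2 for the interaction (2 without FK replicate 1, with 12% of all genes). Causes of these changes were not tested. DUSP8, with 3.94 to 23.9 normalized counts, is the member that depth limits most, and the other members had at least 353 in every library.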
